A study of Mus musculus with 6 samples.

Results

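The phosphoinositide 3-kinase (PI3K), AKT and mTOR components of the testis were followed in mice labelled Foxo1 null and in wild-type mice. The group holds 37 genes, from the adaptors and PI3K subunits through AKT and its coactivator Tcl1 to the mTOR complexes and their outputs, and its members were all probes whose platform gene symbol is on that list. Of the 37 genes, 36 had a named probe and 29 had a probe that could be tested, among 11145 tested genes in all. They were measured by 84 of the 45281 probes, of which 55 were tested and 21 were detected on no array.

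The samples were total RNA of testis at postnatal day 4 from mice of the FVB strain, 3 labelled Foxo1 null and 3 labelled wild type, each on its own array of 1 Illumina bead slide. The Foxo1 allele, and any Cre driver behind it, are not given in the sources used here. Nothing says that the 3 samples of a group came from separate animals, so the p-values measure only the spread between these samples, which may be technical.

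PI3K is a lipid kinase that, once recruited to an activated receptor, makes a membrane lipid which brings AKT to the membrane, where PDK1 and mTORC2 phosphorylate it. AKT then phosphorylates FOXO1, which keeps this transcription factor out of the nucleus, and it also relieves the TSC brake on Rheb, which switches on mTORC1 and with it protein synthesis. In the newborn testis the pathway acts downstream of growth factor receptors such as RET in spermatogonia, and it is also used by Sertoli and other somatic cells. Abundance of these mRNAs does not measure pathway activity, which is set largely by phosphorylation.

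Levels are given as normalized log2 intensity, so a difference of 1 is a doubling of the background-corrected signal plus an offset of 16. Every difference is null minus wild type. The arrays detected 44.4% to 47.8% of their probes (detection p under 0.05), and the median probe was read from 43 beads. Foxo1 separated the groups at both of its probes, in opposite directions. Probe ILMN_2656498 read 6.37, 5.83 and 6.69 on the null arrays, against 8.08, 8.07 and 8.19 on the wild-type arrays, a difference of -1.81 (SE 0.22, adjusted p = 0.0273, limma with Benjamini-Hochberg). Probe ILMN_2509340 read 8.82, 8.57 and 8.76 on the null arrays, against 5.69, 5.42 and 4.96 on the wild-type arrays, a difference of 3.36 (SE 0.20, adjusted p = 0.00221, limma). The groups did not overlap at either probe. Where the probes lie relative to any deleted part of Foxo1 is not given in the sources used here, and a probe outside it checks nothing.

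Most of the 29 tested members had small measured differences between null and wild-type testes, as did most tested genes of the array. 1 member, Tcl1, stood far from the others. None of the 29 tested members passed the test (0 lower and 0 higher at an adjusted p under 0.05, limma with Benjamini-Hochberg over all 20597 tested probes). Over the whole array 0.136% of tested probes passed, and 0.17% of tested genes (0.162% lower and 0.00897% higher). Tcl1 and Pik3cd had lower and Pik3r1 higher values in null testes at an unadjusted p under 0.05, which is 6.90% of the members lower and 3.45% higher, beside 4.76% and 4.26% of all tested genes. Differences were negative for 16 members and positive for 13, where 52.1% of all tested genes had a positive value, with a median of -0.06 and a middle range of -0.17 to 0.17. Over all tested genes the median was 0.01 and the middle range -0.14 to 0.15. The difference was within 0.5 of 0 for 26 members, or 89.7%, beside 92.2% of all tested genes.

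The null arrays lay wholly below the wild-type arrays for Tcl1, Pik3cd, Mlst8 and Rps6, and wholly above them for Pik3r1 and Tsc1. These are 13.8% and 6.90% of the tested members, beside 8.08% and 6.81% of all tested genes. Each gene enters these counts by its brightest tested probe, a choice that matters for Sgk3, Tsc1 and Rptor, whose probes are each given where the gene is described. What a miss of the threshold leaves possible can be read from the intervals. The 95% interval of the difference lay inside 1 log2 unit either side of 0 for 25 members, and inside 0.5 for 10 of them.

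**Figure D1:**
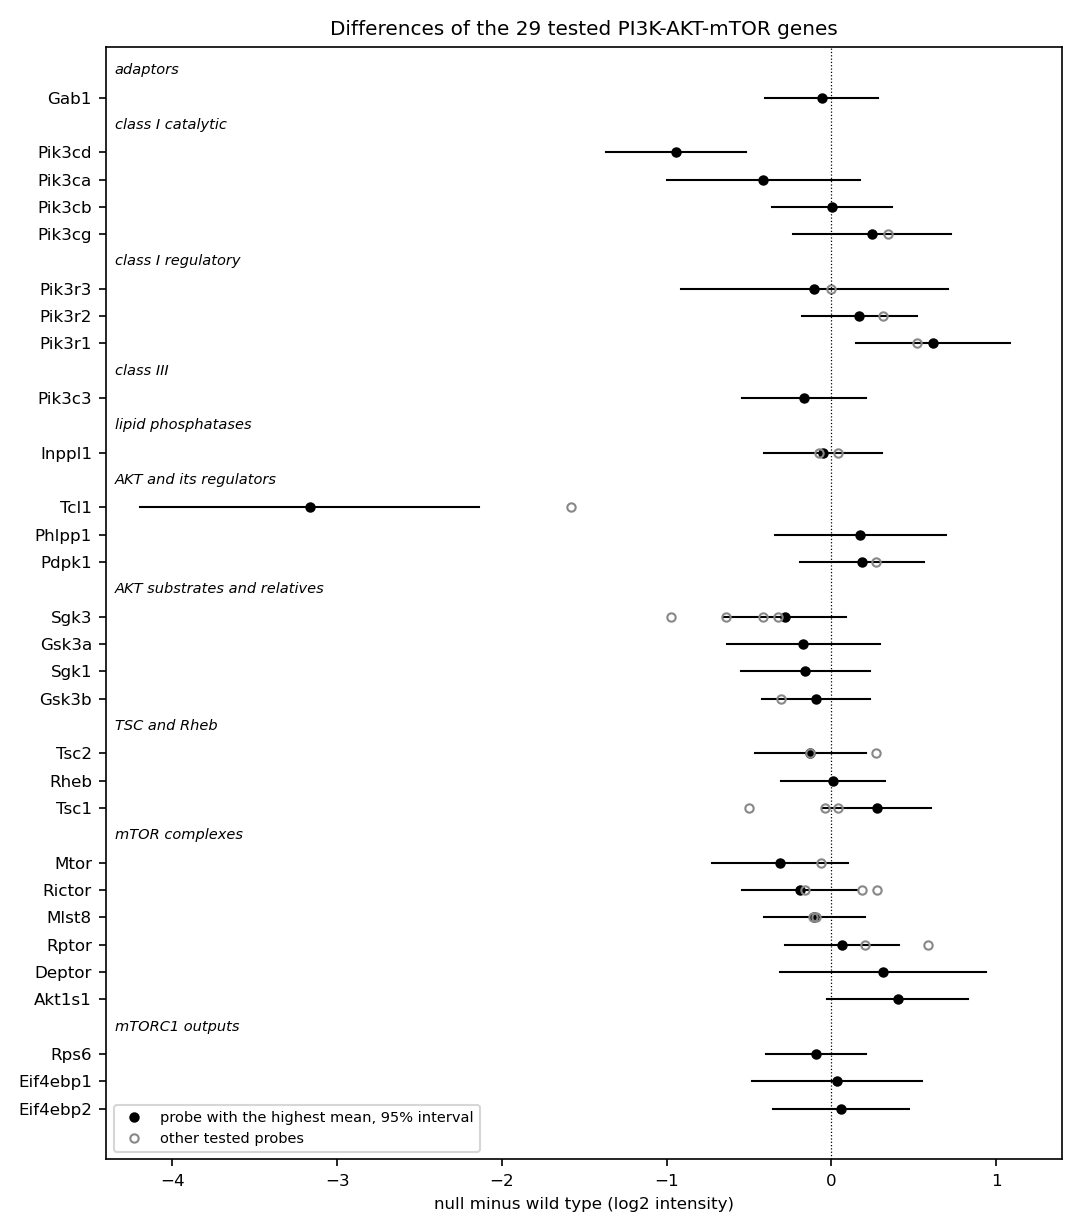
Null minus wild-type difference in log2 intensity for the brightest tested probe of each of the 29 tested members, ordered by role, with 95% intervals from limma (n = 3 arrays per group). Tcl1 lies at -3.17 and Pik3cd at -0.94, Pik3r1 is the highest at 0.62, and the other 26 members lie within 0.5 of 0.

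Promoter sequence is shown for the members with the lowest and the highest difference, Tcl1 and Pik3r1, and for Pik3cg, the tested member whose window holds a forkhead core. Windows run from 250 bases before to 50 bases after the annotated start and come from RefSeq on build GRCm38.p6, in which 32 of the 37 members matched, with 50 windows. The forkhead core searched was GTAAACA and the GC box, the binding sequence of SP factors, was GGGCGG, each on both strands; the motifs share no letters in these windows. Capitals mark the motif matches, and a match on the other strand appears as its reverse complement.
Tcl1, chr12:105222688-105222987, minus strand: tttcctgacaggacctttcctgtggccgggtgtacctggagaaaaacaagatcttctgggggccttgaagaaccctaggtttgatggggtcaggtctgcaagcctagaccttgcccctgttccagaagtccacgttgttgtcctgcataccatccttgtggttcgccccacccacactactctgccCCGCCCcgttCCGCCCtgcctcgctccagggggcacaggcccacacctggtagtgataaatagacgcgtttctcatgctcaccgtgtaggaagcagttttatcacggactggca
Pik3r1, chr13:101768168-101768467, minus strand: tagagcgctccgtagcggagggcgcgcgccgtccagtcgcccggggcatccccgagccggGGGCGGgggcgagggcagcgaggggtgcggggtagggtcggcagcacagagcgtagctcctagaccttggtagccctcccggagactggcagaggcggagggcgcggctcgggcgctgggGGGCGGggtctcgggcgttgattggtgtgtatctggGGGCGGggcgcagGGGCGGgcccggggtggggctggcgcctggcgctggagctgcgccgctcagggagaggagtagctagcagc
Pik3cg, chr12:32208421-32208720, minus strand: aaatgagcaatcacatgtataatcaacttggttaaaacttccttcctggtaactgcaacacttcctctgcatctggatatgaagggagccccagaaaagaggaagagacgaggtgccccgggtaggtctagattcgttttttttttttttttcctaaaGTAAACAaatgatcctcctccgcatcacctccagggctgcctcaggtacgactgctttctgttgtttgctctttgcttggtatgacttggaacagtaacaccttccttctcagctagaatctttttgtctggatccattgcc
The Tcl1 window holds 2 GC boxes and no GTAAACA. The Pik3r1 window holds 4 GC boxes and no GTAAACA, and the window of its second annotated start holds neither motif. GTAAACA occurred in 2 of the 50 member windows (4%), those of Pik3cg and of Akt1, and in 3.65% of 32851 promoter windows of the same length. GC boxes occurred in 29 member windows, or 58%, against 35.7% of all windows. These matches describe the letters of the windows and nothing about binding.

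Of the genes that act on AKT itself, Tcl1 had the lowest value of any member. TCL1 binds the pleckstrin homology domain of AKT and promotes its activation, and it is known from early embryos, germ cells and lymphoid tumours. Its brighter probe, ILMN_2985612, read 7.17, 5.10 and 5.74 on the null arrays, against 9.34, 8.91 and 9.25 on the wild-type arrays. Every null array lay below every wild-type array, and null replicate 1 was the closest to wild type. The uncorrected signal there was 246, 139 and 172 on the null arrays, against 697, 536 and 672 on the wild-type arrays, with bead-to-bead standard errors of 4.83% to 6.84%. The difference was -3.17 (SE 0.45, 95% interval -4.19 to -2.14), or 8.98-fold for the background-corrected signal plus offset. Its adjusted p = 0.0540 (limma, Benjamini-Hochberg) just misses the threshold.

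The second Tcl1 probe, ILMN_2638171, is annotated to the same transcript and pointed the same way. It read 5.74, 4.54 and 4.87 on the null arrays, against 6.72, 6.46 and 6.70 on the wild-type arrays, again without overlap. Its difference was -1.58 (SE 0.29, adjusted p = 0.111, limma). All wild-type arrays detected both Tcl1 probes, which thus entered the test through wild type, and this favours a negative value. The null levels were close to background, since 2 of the 3 null arrays detected the brighter probe and 1 the other. The size of the difference therefore depends on the background correction, and at the brighter probe it was -1.99 without it (adjusted p = 0.00279, limma). The direction was negative in all 17 alternative settings that gave a value, from -3.75 to -1.99, and the adjusted p lay between 0.0024 and 0.27, under 0.05 in 8 of them. The value depended on single arrays as well: without null replicate 1 it was -3.75 (adjusted p = 0.00415, limma), and without null replicate 3 it was -3.04 (adjusted p = 0.27, limma).

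**Figure D2:**
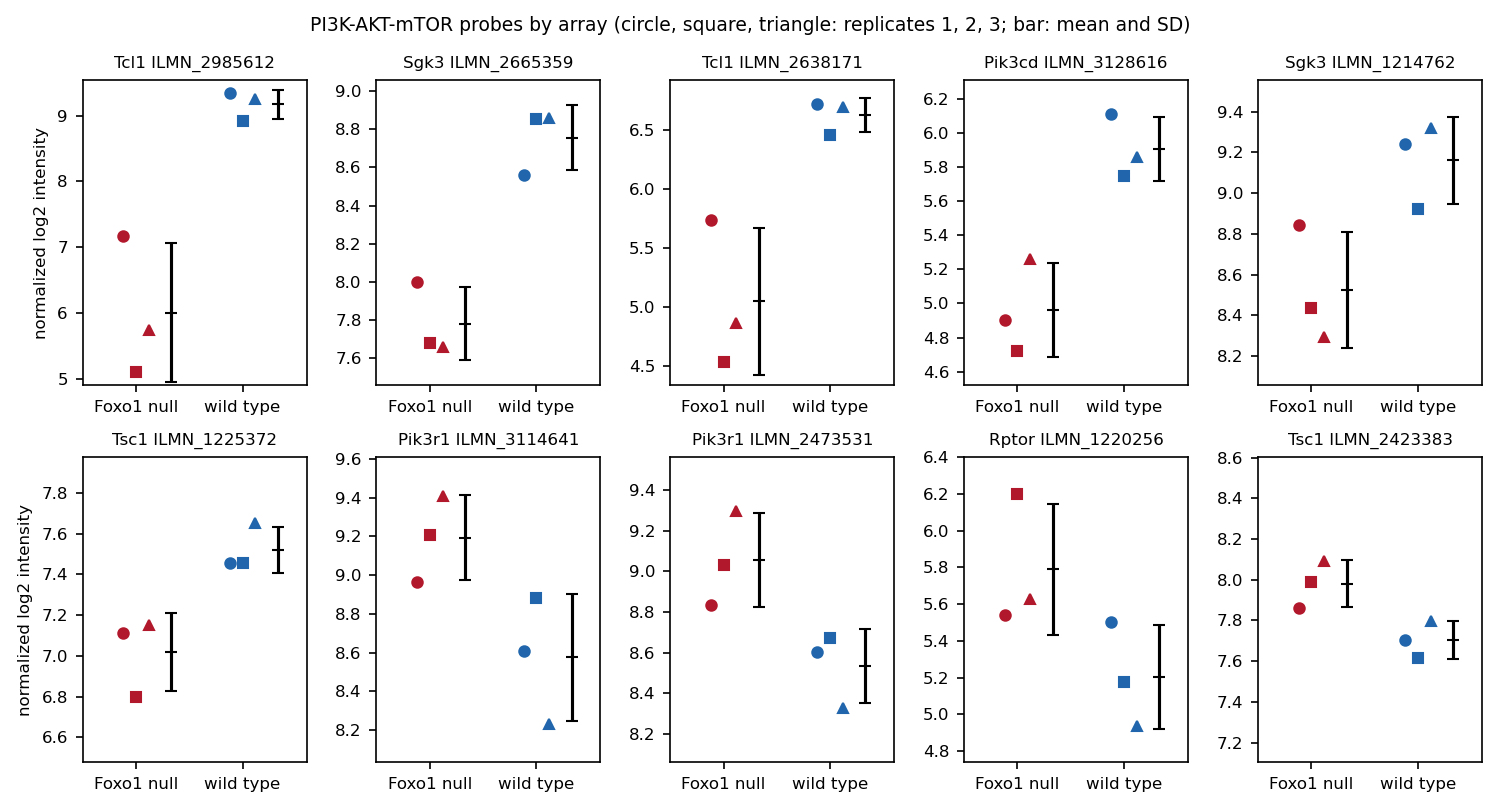
Normalized log2 intensity on each array for the 9 member probes at an unadjusted p under 0.05 and for the brightest Tsc1 probe, null arrays left and wild-type arrays right, with the group mean and SD (n = 3) as a bar. The groups do not overlap at any probe shown. At the brighter Tcl1 probe, ILMN_2985612, values run from 5.10 to 7.17 in null against 8.91 to 9.34 in wild type.

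Germ cell markers are given beside Tcl1, which is known to be expressed in these cells. Of 16 such markers 15 were tested, and by brightest probe 1, Nanos2, passed the test (limma). Dimmer probes of Dppa4 (-1.54) and Ret (-1.75) passed too (adjusted p = 0.0239 for each, limma). Each of these was detected on 1 null array and on all wild-type arrays. All 15 had negative values (median -1.04), 12 of them at an unadjusted p under 0.05, where 4.76% of all tested genes were lower. Of the 15, 5 (Nanos3, Tdrd1, Ret, Nanos2 and Pou5f1) were detected on fewer than 3 null arrays and entered the test through wild type, which favours a negative value. The 10 markers detected on all 6 arrays were negative as well, 7 at an unadjusted p under 0.05, with a median of -0.91. The summed background-corrected signal of the 15, offset included, spanned 2267 to 3422 in null testes and 5012 to 8332 in wild-type testes. Mael was undetected on every array. In bulk tissue RNA, fewer cells of a type and less RNA per cell cannot be told apart. Set against the wild-type mean, Tcl1 was at -2.0, -4.07 and -3.43 on null replicates 1, 2 and 3, and the mean of the germ cell markers was at -0.89, -1.57 and -1.32. Replicate 2 was the lowest null array in both. By brightest probe the differences of single germ cell markers ran from -3.20 for Ret to -0.29 for Zbtb16, beside -3.17 for Tcl1.

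No marker of the other cell types passed the test (0 lower and 0 higher in each list, limma), beside 0.17% of all tested genes. At an unadjusted p under 0.05, 4.26% of all tested genes were higher and 4.76% lower. All 7 tested duct epithelium markers had positive values (median 1.09), 6 of them at an unadjusted p under 0.05, with Epcam undetected. Of these, Pax8, Krt19 and Krt7 were detected on fewer than 3 wild-type arrays and entered the test through the null group. The 4 detected on all 6 arrays were positive, 3 at an unadjusted p under 0.05. The summed signal of the 7 spanned 1441 to 5703 in null testes and 902 to 1349 in wild-type testes, and null replicates 2 and 3 were the highest. All 5 tested peritubular muscle markers had positive values (median 0.78, each with an unadjusted p under 0.05, Cnn1 undetected), with a summed signal of 33766 to 50904 in null testes and 24958 to 31015 in wild-type testes. Of 9 tested macrophage markers 8 had positive values, 5 at an unadjusted p under 0.05 (median 0.50, summed signal 1940 to 3028 in null testes and 1609 to 2196 in wild-type testes). Of 7 tested interstitial fibroblast markers 6 had positive values, 3 at an unadjusted p under 0.05 (median 0.24, summed signal 38970 to 49402 in null testes and 33529 to 41449 in wild-type testes). All 7 tested Leydig cell markers had negative values, 2 at an unadjusted p under 0.05 (median -0.31, summed signal 7789 to 10855 in null testes and 9105 to 15405 in wild-type testes). The summed signals of the macrophage, fibroblast and Leydig lists overlapped between the groups. The 5 tested endothelial markers had 3 positive and 2 negative values (median 0.25), with Esam alone at an unadjusted p under 0.05 (0.40). Their summed signal was 1712 to 2079 in null testes and 1604 to 1620 in wild-type testes. The 2 tested erythroid markers had 1 positive and 1 negative value. Of 8 lymphocyte markers 1 was tested. Of 10 tested Sertoli markers 7 had positive and 3 negative values (median 0.10). Rhox5 alone had an unadjusted p under 0.05, at -0.87, with detection on 1 null array and on all wild-type arrays. The 10 summed to between 36571 and 46712 in null testes and between 37171 and 38762 in wild-type testes. Of them 9 were detected on all 6 arrays, so Sertoli marker transcripts were present in both groups. The part of these marker values in the members' values was not tested.

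**Figure D3:**
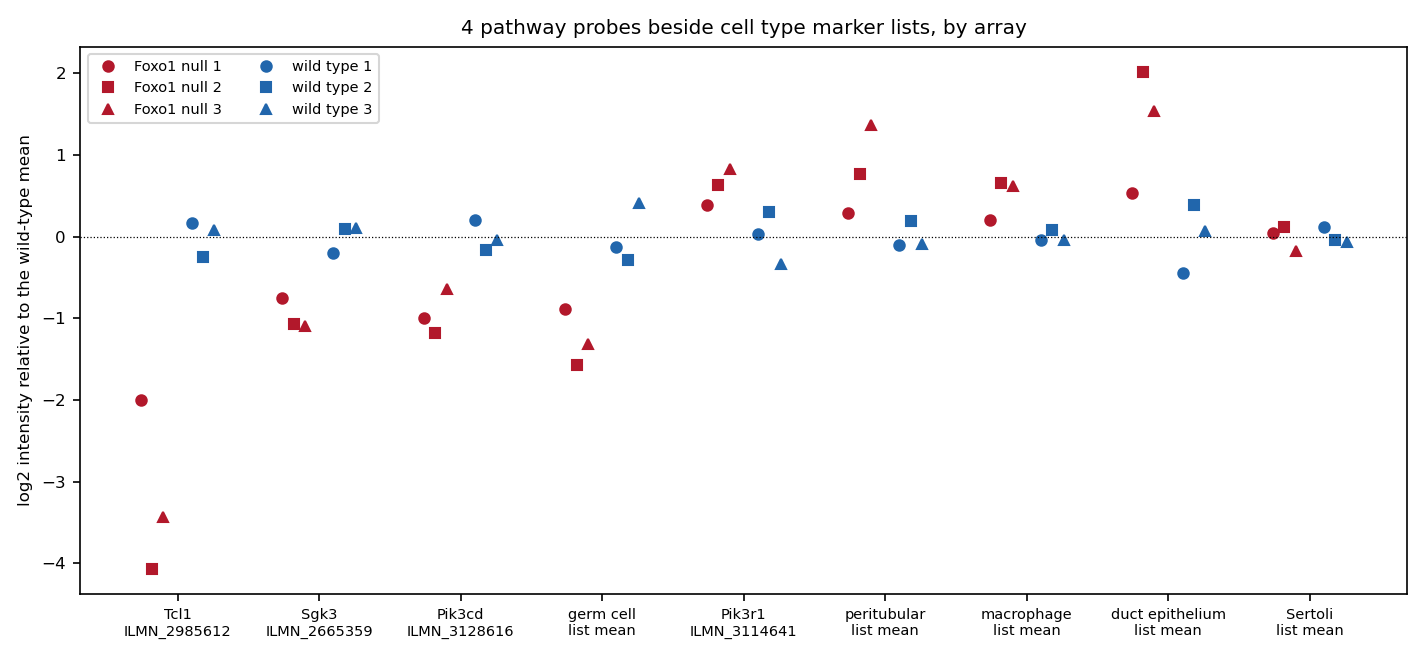
Log2 intensity on each array relative to the wild-type mean, for 4 member probes and for the means of 5 cell type marker lists. Null arrays run from -1.57 to -0.89 for germ cell markers and from 0.54 to 2.02 for duct epithelium markers, and Tcl1 from -4.07 to -2.0.

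The other regulators of AKT had values near 0. Pdpk1, which encodes the kinase PDK1 that phosphorylates AKT, was at 0.19 (SE 0.17), with its second tested probe at 0.27 (SE 0.18). Phlpp1, which encodes a phosphatase that removes phosphate from AKT, was at 0.18 (SE 0.23), from a probe near background that was detected on 2 arrays of each group. The AKT kinases themselves gave no testable value: the Akt1 probe was detected on no array, and of the Akt2 probes 1 was detected on 1 array of each group and the other on none. These probes leave the levels of Akt1 and Akt2 in either group unmeasured.

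Among the kinases related to AKT and its substrates, Sgk3 had negative values at every tested probe, and none passed the test. SGK3 is a serine/threonine kinase that is close to AKT and is recruited to endosomes by a PI3K lipid product. The sizes differed over its 5 tested probes. Probe ILMN_2665359 read 8.0, 7.68 and 7.66 on the null arrays, against 8.56, 8.85 and 8.86 on the wild-type arrays, which is -0.98 (SE 0.17, adjusted p = 0.0992, limma). Probe ILMN_1214762 read 8.84, 8.43 and 8.29 on the null arrays, against 9.24, 8.92 and 9.32 on the wild-type arrays, which is -0.64 (SE 0.19, adjusted p = 0.356, limma). Neither probe had overlapping groups. Over 17 alternative settings the difference at ILMN_2665359 ran from -1.09 to -0.74 and its adjusted p from 0.0128 to 0.393 (limma), under 0.05 in 5 of them.

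The other Sgk3 probes had overlapping groups. The brightest, ILMN_3108894, read 9.35, 9.64 and 9.19 on the null arrays, against 9.77, 9.65 and 9.61 on the wild-type arrays, a difference of -0.28 (SE 0.16). It is the only tested Sgk3 probe annotated to another RefSeq transcript than the rest, and the remaining probes were at -0.41 (SE 0.20) and -0.32 (SE 0.25). The probe annotated to that transcript and those of the other one thus all lay on the negative side, with sizes from -0.98 to -0.28. Sgk1, a relative induced by stress and steroid signals, was at -0.16 (SE 0.17). Gsk3a and Gsk3b, the glycogen synthase kinases that AKT inhibits, were at -0.17 (SE 0.20) and -0.09 (SE 0.14), with the second Gsk3b probe at -0.31 (SE 0.21).

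Among the PI3K subunits, the catalytic subunit Pik3cd had a lower and the regulatory subunit Pik3r1 a higher value in null testes, and neither passed the test. Pik3cd encodes the delta catalytic subunit, best known from leukocytes, whose macrophage markers are given above. It read 4.90, 4.72 and 5.26 on the null arrays, against 6.11, 5.75 and 5.86 on the wild-type arrays, without overlap. The difference was -0.94 (SE 0.19, adjusted p = 0.132, limma). Detected on 1 of 3 null and on all wild-type arrays, the probe entered the test through the wild-type group, and the other Pik3cd probes could not be tested. Without background correction the direction held, and over all settings with a value the difference ran from -1.09 to -0.30.

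Pik3r1 encodes the main regulatory subunit, which holds the catalytic subunit in check and links it to phosphorylated receptors. Probe ILMN_3114641 read 8.97, 9.21 and 9.41 on the null arrays, against 8.61, 8.88 and 8.23 on the wild-type arrays. Its difference was 0.62 (SE 0.20, 95% interval 0.15 to 1.09, adjusted p = 0.399, limma). Probe ILMN_2473531, annotated to another RefSeq transcript of the gene, read 8.83, 9.03 and 9.29 on the null arrays, against 8.60, 8.67 and 8.33 on the wild-type arrays, a difference of 0.52 (SE 0.18, adjusted p = 0.415, limma). All null arrays lay above all wild-type arrays at both tested probes, and null replicate 3 was the highest at each. The remaining Pik3r1 probes, ILMN_1249335 and ILMN_3040050, were detected on no array, though annotated to the same transcript as ILMN_3114641.

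The remaining subunits stayed closer to 0. Pik3ca and Pik3cb, the widely expressed alpha and beta catalytic subunits, were at -0.41 (SE 0.26) and 0.00 (SE 0.16). The Pik3ca value rested on null replicate 2, which read 5.85 beside 6.83 and 6.70 on the other null arrays, against 6.73, 7.02 and 6.87 on the wild-type arrays. Pik3cg, the gamma subunit of leukocytes, was at 0.25 (SE 0.21) and 0.35 (SE 0.22) at its probes, the brighter of which was detected on 1 wild-type array. The regulatory subunits Pik3r2 and Pik3r3 were at 0.17 (SE 0.15) and -0.10 (SE 0.36). Pik3r5, a regulator of the gamma subunit, was detected on no array.

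Pik3c3, the class III kinase of autophagy and endosomes, read 9.34, 8.95 and 9.16 on the null arrays, against 9.40, 9.14 and 9.42 on the wild-type arrays, a difference of -0.17 (SE 0.16) with overlapping groups. Gab1, a docking protein that brings PI3K to receptors, read 11.24, 11.06 and 10.90 on the null arrays, against 11.13, 11.17 and 11.07 on the wild-type arrays, a difference of -0.06 (SE 0.15). The groups overlapped, and Irs1, the docking protein of the insulin receptor, was detected on no array. Of the phosphatases that remove PI3K lipid products, Inppl1, which encodes the widely expressed SHIP2, read 11.77, 11.87 and 11.75 on the null arrays, against 12.04, 11.88 and 11.62 on the wild-type arrays. Its difference was -0.05 (SE 0.16), and its other tested probes gave -0.08 and 0.04. Inpp5d, the leukocyte form of that enzyme, and Inpp4b were detected on no array.

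The TSC and Rheb switch upstream of mTORC1 showed probes that pointed in opposite directions. TSC1 and TSC2 form a complex that turns off the GTPase Rheb, and Rheb in its active form switches on mTORC1. The brightest Tsc1 probe, ILMN_2423383, read 7.86, 7.99 and 8.09 on the null arrays, against 7.70, 7.61 and 7.80 on the wild-type arrays, a difference of 0.28 (SE 0.14, adjusted p = 0.642, limma). Probe ILMN_1225372, annotated to a cDNA clone in place of the RefSeq transcript, read 7.11, 6.80 and 7.15 on the null arrays, against 7.46, 7.46 and 7.65 on the wild-type arrays, a difference of -0.50 (SE 0.16, adjusted p = 0.376, limma). The groups did not overlap at either probe, with the null arrays above at the first and below at the second. The remaining Tsc1 probes gave 0.04 (SE 0.23) and -0.04 (SE 0.16), so no direction can be given for the gene.

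Tsc2 was at -0.13 (SE 0.15) at its brightest probe, and its other probes gave -0.13 (SE 0.14) and, at a dim probe, 0.27 (SE 0.38). Rheb was at 0.01 (SE 0.14), with null arrays that differed by an SD of 0.01 and wild-type arrays by an SD of 0.11 (n = 3 each). That value came from 1 of its 4 probes. The others, some annotated to the same RefSeq transcript, were detected on no array.

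In the mTOR complexes the largest values were those of Akt1s1 and of Rptor's dim probe. Mtor, the kinase common to both complexes, was at -0.31 (SE 0.18) and -0.07 (SE 0.35) at its tested probes. Rptor encodes the scaffold that brings substrates to mTORC1, and its brightest probe read 9.30, 8.94 and 9.09 on the null arrays, against 8.98, 9.06 and 9.10 on the wild-type arrays, a difference of 0.06 (SE 0.15). Its dim probe ILMN_1220256, annotated to a cDNA clone, read 5.54, 6.20 and 5.63 on the null arrays, against 5.50, 5.17 and 4.94 on the wild-type arrays. There the difference was 0.58 (SE 0.22, adjusted p = 0.487, limma) without overlap, and a further dim probe gave 0.20 (SE 0.28). The tested probe for the RefSeq transcript thus overlapped between groups while the dim one, ILMN_1220256, did not.

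Rictor, the scaffold of mTORC2, was at -0.19 (SE 0.15) at its brightest probe, and its other tested probes ran from -0.16 to 0.27. Mlst8, a subunit of both complexes, was at -0.10 (SE 0.13) at its brightest probe, with the null arrays at 10.54, 10.46 and 10.53, against 10.58, 10.67 and 10.58 on the wild-type arrays. The groups did not overlap at that probe, and its other probes gave -0.11 and -0.09 with overlap. Deptor, an inhibitor of mTOR, was at 0.31 (SE 0.27), and its null arrays spread widely at 6.99, 7.45 and 8.17, against 7.22, 7.13 and 7.33 on the wild-type arrays. Akt1s1 encodes PRAS40, an mTORC1 inhibitor that AKT phosphorylates, and it read 9.91, 9.73 and 9.38 on the null arrays, against 9.30, 9.46 and 9.05 on the wild-type arrays. Its difference was 0.40 (SE 0.19, adjusted p = 0.60, limma), and the groups overlapped through null replicate 3.

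Downstream of mTORC1, Rps6 encodes a ribosomal protein that S6 kinase phosphorylates, and it read 13.82, 13.92 and 13.87 on the null arrays, against 13.98, 13.95 and 13.96 on the wild-type arrays. The groups did not overlap, yet the difference was -0.09 (SE 0.13, adjusted p = 0.921, limma), and under median scaling its sign turned to 0.03. Eif4ebp1 and Eif4ebp2, translation repressors that mTORC1 phosphorylates, were at 0.03 (SE 0.23) and 0.06 (SE 0.18). Of the S6 kinases, Rps6kb1 had no named probe, and Rps6kb2 was detected on 2 wild-type and 0 null arrays, too few to be tested.

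Of the 15 members with 2 or more tested probes, 11 had probes of a single sign and 4 had probes of both signs, namely Inppl1, Rictor, Tsc1 and Tsc2. At the level of probes, 9 of the 55 tested member probes had an unadjusted p under 0.05. They were 6 lower (10.9% of them, beside 4.75% of all tested probes) and 3 higher (5.45%, beside 4.03%). The 6 lower probes belong to 4 genes, with 2 from Tcl1 and 2 from Sgk3, so they are not independent measurements.

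No gene of the wider pathway passed at its brightest probe either. A further list of 110 pathway genes, holding other PI3K subunits, phosphatases, AKT regulators, the nutrient inputs of mTORC1, its outputs and receptors that recruit PI3K, had 79 tested genes. The count was 0 lower and 0 higher of 79 (limma), beside 0.17% of all tested genes, a share so small that 0 of 79 says little. At an unadjusted p under 0.05, 4 lay on the lower side (5.06%) and 2 on the higher side (2.53%). The same shares of all tested genes were 4.76% and 4.26%. The median difference was -0.01, beside 0.01 over all tested genes. The 2 lists do not overlap in genes.

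Ret, the receptor tyrosine kinase through which GDNF signals to spermatogonia and itself one of the germ cell markers above, had the lowest value of this wider list. Its brighter probe read 6.45, 4.53 and 4.80 on the null arrays, against 8.62, 8.14 and 8.63 on the wild-type arrays, a difference of -3.20 (SE 0.45, adjusted p = 0.0520, limma). Its dimmer probe, ILMN_3043469, was the only probe of either list to pass, at -1.75 (SE 0.20, adjusted p = 0.0239, limma), with 5.25, 4.92 and 4.86 on the null arrays, against 6.94, 6.37 and 6.96 on the wild-type arrays. For each Ret probe, detection held on 1 null array and on every wild-type array, so both entered the test through wild type, and the null levels lie near background. Null replicate 1 was the highest of the null arrays at both Ret probes and at both Tcl1 probes.

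Other members of the wider list had smaller differences. Pik3ap1, an adaptor that links PI3K to immune receptors, was at 0.67 (SE 0.15, adjusted p = 0.209, limma), with 5.89, 6.02 and 6.08 on the null arrays, against 5.19, 5.26 and 5.54 on the wild-type arrays. Rhebl1, a relative of Rheb, was at -0.62 (SE 0.16, adjusted p = 0.276, limma), with 7.55, 7.46 and 7.33 on the null arrays, against 8.02, 7.89 and 8.29 on the wild-type arrays. The groups did not overlap at either gene.
Rragd, a Rag GTPase that carries amino acid signals to mTORC1, was at -0.95 (SE 0.33) at its brighter probe and 0.14 (SE 0.17) at the dimmer. Fgfr2, a fibroblast growth factor receptor, was at 0.63 (SE 0.24) and 0.27 (SE 0.29). Inpp5f, a phosphoinositide phosphatase, was at -0.40 (SE 0.16), Wdr59, a subunit of the GATOR2 complex, at -0.34 (SE 0.15), and Synj2, a synaptojanin, at 0.33 (SE 0.15). None of these passed the test, and their adjusted p ran from 0.425 to 0.572 (limma).

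**Figure D4:**
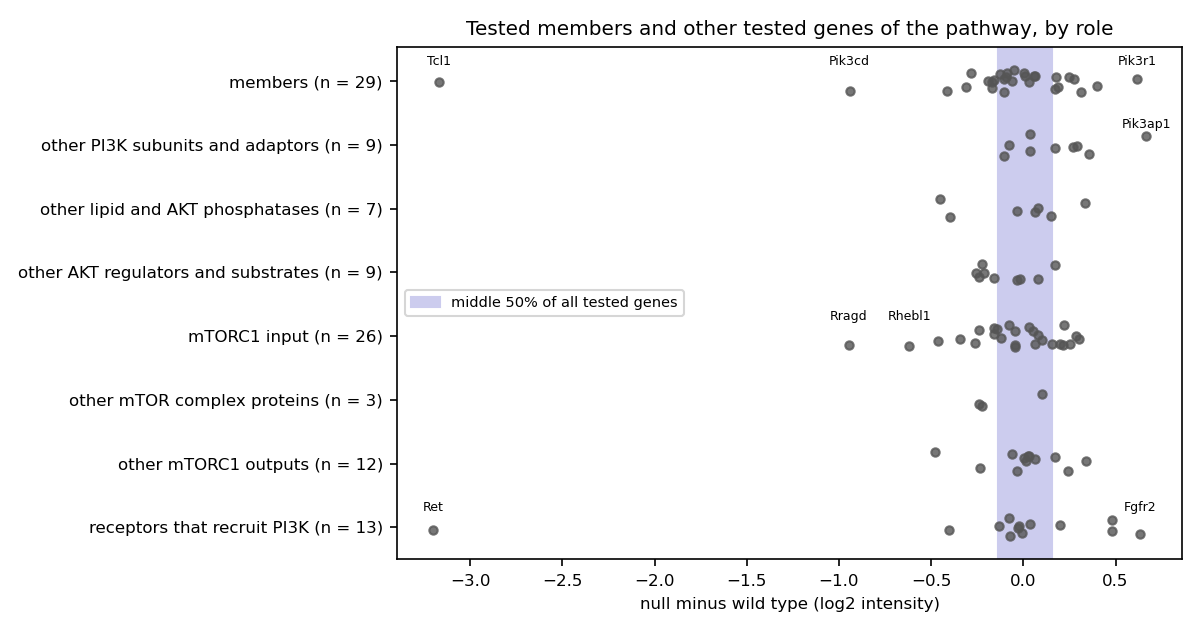
Null minus wild-type difference in log2 intensity for the 29 tested members in the top line and the 79 other tested pathway genes below, each dot a gene at its brightest tested probe, with the shaded band giving the middle range of all tested genes. Tcl1 at -3.17 and Ret at -3.20 lie apart from the rest, whose values run from -0.95 to 0.67.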

How the data were processed

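Total RNA of 6 testis samples was measured on 1 Illumina bead slide. The scanner table deposited by the authors gives, per the file headers, the mean bead intensity of each probe with its standard error, the bead count and a detection p-value. These intensities were neither background-subtracted nor normalized between arrays. The submitters' processing notes name BeadStudio, with no version. A second deposited table holds the authors' normalized intensity, on a linear scale, with its method not given in the sources used here. It ranked the probes of each array as the scanner table did and was used as an alternative only. Gene names are from the platform annotation, with 34885 probes carrying 1 symbol, 18 several and 10378 none.

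The deposited intensities were background-corrected, quantile normalized and put on a log2 scale with neqc of limma 3.58.1 (R 4.3.3, offset 16). Probes with a detection p under 0.05 on at least 3 of 6 arrays were tested, 20597 in all, with lmFit and eBayes, two-sided, without covariates, adjusted over all of them by Benjamini-Hochberg with a threshold of 0.05. A gene is represented by its tested probe with the highest mean. The script was tested on simulated data. The members and all lists were chosen with earlier results of these data known, and no list was given a test of its own. Every member is named; values on every array are given for Tcl1, for members with a probe at an unadjusted p under 0.05 and for the member with the smallest p in each role, and for some others for their spread or overlap, chosen after their values were seen. Of the wider list, the 8 genes with the smallest p are named. The precision rests on 3 arrays per group, and 24 to 77 beads per member probe and array. Alternatives covered background correction, normalization, the filter on dim probes, the variance model, array weights, a replicate block, slide position, the threshold, averaging of a gene's probes and leaving out each array. Same-numbered null and wild-type samples had correlations of their deviations of 0.16, -0.10 and 0.11. Those of differently numbered samples ran from -0.18 to 0.09. With 3 samples per group these values cannot decide whether the numbers pair the samples. Promoter windows were matched by gene symbol.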

Additional observations from a re-analysis of the deposited data

How the results depend on the processing

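No member was called in the analysis as reported. By a gene's brightest probe, Tcl1 and no other member was called without background correction (-1.99), with an offset of 50 (-2.58), with cyclic loess (-3.15), with the authors' normalized values (-2.0), with array weights (-3.30), with slide position as a covariate (-3.24) and at an adjusted p under 0.1, 1 member in each. 1 wider pathway gene, Ret, was called in the same settings and with a gene's probes averaged.

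With the replicate number as a block the Tcl1 difference was -3.17 (adjusted p = 0.0177, limma), 1 member and 1 wider pathway gene were called, 2 members were higher at an unadjusted p under 0.05, and 68 probes were called.

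The count of called probes, 28, was 62 without background correction, 87 with an offset of 50, 14 with median scaling, 53 with the authors' values, 2 without a filter, 18 with detection on all 6 arrays, 103 with a trended and robust prior, 109 with array weights, 76 at an adjusted p under 0.1 and 17 with probes averaged. Members higher at an unadjusted p under 0.05 numbered 3 with median scaling and 2 without background correction, with an offset of 50, the authors' values, no filter, a trended prior, array weights or slide position. Members lower numbered 0 with detection on all 6 arrays, where Tcl1 and Pik3cd could not be tested. Without a filter they numbered 3, namely Tcl1, Pik3cd and Akt1, whose probe was detected on no array.

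Median scaling shifted the median of all tested genes to 0.13. The member median was then 0.047, and Gab1 (0.047), Inppl1 (0.079) and Rps6 (0.030) turned positive. With probes averaged the member median was -0.029 and Tsc1 was -0.056.

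Leaving out 1 array at a time, with the other 5 refitted, gave Tcl1 from -3.75 to -2.72, called members from 0 to 1 (Tcl1, without null replicate 1), called wider pathway genes from 0 to 1 (Ret, without null replicate 1), members lower from 2 to 3 and higher from 0 to 2 at an unadjusted p under 0.05, the member median from -0.077 to -0.027, and called probes from 1 to 70. Rptor ran from -0.032 to 0.15, Gab1 from -0.15 to 0.023 and Inppl1 from -0.16 to 0.046, each changing sign without 1 array (null replicate 1, null replicate 3 and wild-type replicate 1 in that order). Called probes numbered 70 without null replicate 1 and 1 without null replicate 2.

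The cause of these moves was not tested. Depth of signal limits Tcl1, Pik3cd and Ret, whose null levels lie near background.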
